A study of Mus musculus with 5 samples.

Results

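The genes described here encode 37 proteins of the endoplasmic reticulum (ER), the compartment in which secreted, lysosomal and granule proteins are threaded through the membrane, folded and checked. They are a list of named genes with these functions, drawn up with earlier results of these data known, and membership uses no measured level. They fall into 6 roles. There are 9 lumenal chaperones of the heat shock type with their cofactors (Hspa5, Hsp90b1, Hyou1, Dnajb9, Dnajb11, Dnajc3, Sdf2l1, Manf, Creld2), 2 lectin chaperones (Calr, Canx) and 6 disulfide or prolyl isomerases (Pdia3, Pdia4, Pdia6, P4hb, Fkbp11, Fkbp2). A further 10 genes encode the Sec61 translocon, the TRAP complex and signal peptidase (Sec61a1, Sec61b, Sec61g, Ssr1 to Ssr4, Spcs1 to Spcs3), 4 encode subunits of oligosaccharyltransferase (Ostc, Ddost, Rpn1, Rpn2) and 6 encode stress transcription factors or ER-associated degradation factors (Xbp1, Atf4, Ddit3, Herpud1, Syvn1, Sel1l). All 37 were among the 15287 genes of the deposited table, and all 37 passed the filter on low counts in every comparison.

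Bone marrow was taken from untreated mice aged 20 weeks that carried ZsGreen and CreERT2 at 1 Fgd5 allele and a Tomato cassette at 1 Rosa26 allele (Fgd5CreERT2/+Rosa26Tomato/+), so that all 5 libraries share these alleles. Fgd5 is a gene expressed in hematopoietic stem cells, and ZsGreen reports its activity. There were 3 libraries of lineage-negative, CD45.2+ and c-kit+ (Lin-kit+) cells, here a, b and c, with 1339, 4095 and 6147 cells, and 2 reporter-positive libraries, Fgd5+ and HSC-Fgd5+, with 1312 cells in all, the latter sorted also as Sca1+CD150+CD48-. The table marks libraries only by barcode suffix, the suffixes were tied to populations by their numbers of cells alone, and the title and source of the reporter-positive samples disagree on which is which, so every difference between sorted populations rests on that assignment. The reporter-positive pair was tested as 1 group although the sorts differ, so its spread is that between sorts. The number of mice is not given in the sources used here. In comparisons with the reporter-positive libraries, the p-values below measure the spread between libraries. Comparisons between cell classes, defined below, have the library as a term in the fit. Their p-values measure the spread left once differences between libraries are taken out, with 1 estimate shared by 7 classes of the same 3 libraries. Either spread may be technical.

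Newly made secretory chains enter the ER through the Sec61 channel, lose their signal peptide, receive N-linked glycans from oligosaccharyltransferase and fold with the help of Hspa5 (BiP), Hsp90b1 (GRP94), the calreticulin and calnexin lectins and the protein disulfide isomerases. When unfolded chains accumulate, the sensors Ern1, Atf6 and Eif2ak3 raise the transcription factors Xbp1, Atf6 and Atf4, which act on ER chaperone genes, and under lasting stress Ddit3 (CHOP). Developing granulocytes make large amounts of granule protein in successive waves, myeloperoxidase and elastase first and lactoferrin later, and such cells are known for abundant rough ER at the promyelocyte stage.

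Some of the promoters of these genes hold a known stress element. The ER stress response element (ERSE), bound by ATF6 with NF-Y, was searched as CCAAT, any 9 bases and CCACG, on both strands of the RefSeq promoter windows (build GRCm38.p6, 250 bases before to 50 after each start), which held 31 of the 37 genes. It was present in 8 of these 31 (25.8%), against 0.119% of all 32851 windows and 0.137% of the 27025 genes in the set. A shorter form, ERSE-II (ATTGG, any base, CCACG), stood in Herpud1 and Dnajb11, against 0.0365% of all windows. Neither TGACGTGG (0.676% of all windows) nor TGATGNAAT (0.965%), letters recognised by XBP1 and by ATF4 with its partners, was found in the 31 windows. Both ERSE forms were already known as elements of ER stress genes, so a higher rate in this list could be foreseen. The rates are no result of these data. A match of letters is a description, and neither a bound site nor a cause is read from it. The stretches below are printed because they hold the element in the chaperone and quality control genes described later. Each runs 5′ to 3′ on the strand of the gene, upstream of its start, with the matched element in capitals. Of the copies in Hsp90b1, that nearer the start is in reverse.
Hspa5, chr2:34772005-34772063, plus strand: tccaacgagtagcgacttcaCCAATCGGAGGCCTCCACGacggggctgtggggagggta
Hsp90b1, chr10:86705513-86705676, minus strand, with 2 copies: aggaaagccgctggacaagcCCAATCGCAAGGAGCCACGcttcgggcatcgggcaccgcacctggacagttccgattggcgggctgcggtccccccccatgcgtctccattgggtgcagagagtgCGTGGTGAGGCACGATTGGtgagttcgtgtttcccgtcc
Calr, chr8:84847055-84847113, minus strand, element in reverse: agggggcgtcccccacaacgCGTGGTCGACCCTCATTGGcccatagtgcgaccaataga
Canx, chr11:50325780-50325838, minus strand: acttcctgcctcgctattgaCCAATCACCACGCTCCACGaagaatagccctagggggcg
Pdia6, chr12:17266471-17266529, plus strand: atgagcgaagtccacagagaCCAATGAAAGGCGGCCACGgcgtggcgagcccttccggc
Dnajc3, chr14:118937807-118937865, plus strand: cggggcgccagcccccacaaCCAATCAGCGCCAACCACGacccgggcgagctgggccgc
Creld2, chr15:88819500-88819558, plus strand, element in reverse: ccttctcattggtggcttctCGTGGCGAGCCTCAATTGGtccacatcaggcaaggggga
Syvn1, chr19:6046512-6046570, plus strand: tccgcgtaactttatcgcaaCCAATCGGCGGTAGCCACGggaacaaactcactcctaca
Herpud1, chr8:94386357-94386407, plus strand, ERSE-II: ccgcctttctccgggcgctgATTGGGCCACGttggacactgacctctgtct

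Lin-kit+ cells were ordered along granule formation by gates on the UMIs (distinct captured transcripts) of marker genes per 10000 UMIs of the cell. Erythroid cells had a summed level of Klf1, Car1, Rhd, Ermap and Aqp1 of at least 10 and basophil cells a summed level of Prss34 and Mcpt8 of at least 10, both with Mpo under 20, and 233 cells that passed either gate with more Mpo, or passed both, were left out. Of the rest, and in this order of precedence, Ltf-high cells had Ltf of at least 5, S100a8-high cells S100a8 of at least 20, Elane-high cells Elane of at least 20 and Mpo-high cells Mpo of at least 20. These are ranges, not cell types, and 165 cells lay within 1.5-fold of the erythroid cut, 52 of the basophil, 214 of the Ltf, 236 of the S100a8, 639 of the Elane and 1172 of the Mpo cut. The classes held 812 erythroid cells, 3020 cells below every gate, 788 Mpo-high, 3157 Elane-high, 2353 S100a8-high, 1063 Ltf-high and 155 basophil cells, and 1307 of the 1312 reporter-positive cells lay below every gate. Cells below every gate were mixed: the dendritic and plasma cell gene Jchain stood at 999.8, 1058 and 806 CPM there (CPM, UMIs of the gene per 1000000 UMIs of the sum, always given in the order of libraries a, b and c), while Sdc1, Mzb1 and Tnfrsf17 lay between 1.38 and 33.9 CPM. Libraries held between 2166655 and 36080242 UMIs, with medians of 3721 to 6567 UMIs per cell, and median depth differed between classes, from 3281 UMIs per cell in basophil to 6699 in Elane-high cells. The part of depth in the results was not tested. There were 62 barcodes that occurred in 2 or more libraries (125 cells).

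Taken as 1 sum, the 37 genes took a larger share of UMIs in Mpo-high and Elane-high than in erythroid cells. Their share of all UMIs was smallest in Ltf-high cells. They made up 0.575%, 0.564% and 0.599% of UMIs in erythroid cells of libraries a, b and c, 0.752%, 0.7495% and 0.775% below every gate, 1.13%, 1.10% and 1.11% in Mpo-high and 1.38%, 1.43% and 1.41% in Elane-high cells. No erythroid value reached any Elane-high value, and the ratio within a library was 2.43 ± 0.09 (SD, n = 3). The share was 1.11%, 1.14% and 1.14% in S100a8-high cells and 0.302%, 0.323% and 0.324% in Ltf-high cells, the lowest of all classes when all UMIs are counted. It did not follow the primary granule genes throughout. These summed to 44450, 44770 and 48650 CPM in S100a8-high cells, above the 25440, 26190 and 27330 in Elane-high cells. The set named granule and globin genes held globins and listed markers of granules, calprotectin (S100a8 and S100a9), basophil or mast cells and eosinophils. Together they took 18.2% ± 0.09 (SD, n = 3) of UMIs in S100a8-high and 44.0% ± 0.94 (SD, n = 3) in Ltf-high cells, which lowers any other share. In Ltf-high cells the calprotectin genes alone summed to 303400, 299100 and 285900 CPM, and the secondary granule genes to 138900, 135000 and 137600. Of the UMIs outside granule and globin genes, the 37 genes took 1.45% ± 0.02 in Elane-high, 1.38% ± 0.03 in S100a8-high and 0.564% ± 0.01 in Ltf-high cells (SD, n = 3). Ltf-high cells, at 0.5485%, 0.577% and 0.568% there, overlapped with erythroid cells, at 0.575%, 0.566% and 0.601%. On that scale S100a8-high cells stood at 0.955 ± 0.009 of Elane-high cells, and Ltf-high cells still lay below S100a8-high cells 2.45-fold (2.41 to 2.46 over libraries). The reporter-positive libraries, at 0.575% (Fgd5+) and 0.590% (HSC-Fgd5+) of UMIs, lay within the range of erythroid cells and below all 3 sums of Lin-kit+ cells below every gate.

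**Figure D1:**
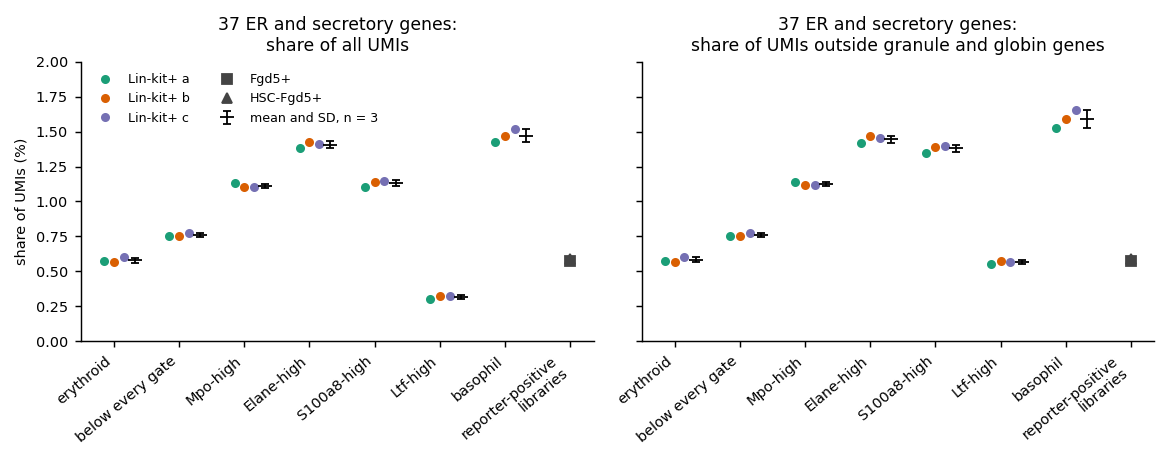
Share of UMIs taken by the 37 genes (percent, vertical axis) in each cell class of the 3 Lin-kit+ libraries (points, with mean and SD) and in the 2 reporter-positive libraries; left, of all UMIs, right, of UMIs outside granule and globin genes. On the left the share rose from 0.579% in erythroid to 1.41% in Elane-high cells and fell to 0.316% in Ltf-high cells. On the right Ltf-high cells (0.564%) overlapped with erythroid cells (0.581%).

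The share was also taken over cells binned by 1 marker at a time, for the 10381 Lin-kit+ cells that passed neither the erythroid nor the basophil gate on their summed genes. Cells with under 5 Mpo UMIs per 10000 gave 0.576% ± 0.02 (SD, n = 3 libraries), cells with 20 to 50 gave 1.07% ± 0.04 and cells with 100 or more gave 1.61% ± 0.04. Granule and globin genes took 13.03%, 15.95% and 16.84% of UMIs in the bin under 5, which thus also held cells high in such genes. Outside granule and globin genes the same Mpo bins gave 0.680%, 1.15% and 1.77%. Along Elane the share rose less steeply, from 0.733% ± 0.01 under 5 to 1.35% ± 0.02 at 200 or more. Along S100a8 it was not monotonic. It was 1.17% ± 0.01 under 20, highest at 1.58% ± 0.04 between 20 and 200, 1.24% ± 0.03 between 200 and 1000 and 0.421% ± 0.004 at 1000 or more. Outside granule and globin genes the same S100a8 bins gave 1.19%, 1.69%, 1.46% and 0.697%, so the order held on both scales. Along Ltf the share fell from 1.16% ± 0.01 under 5 to 0.232% ± 0.02 at 50 or more. Outside granule and globin genes the same Ltf bins gave 1.23% and 0.461%, a smaller fall. In single S100a8-high cells the share spread from 0.323% at the 5th to 1.83% at the 95th percentile in library a, wider than in Elane-high cells of the same library (0.895% to 1.87%).

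**Figure D2:**
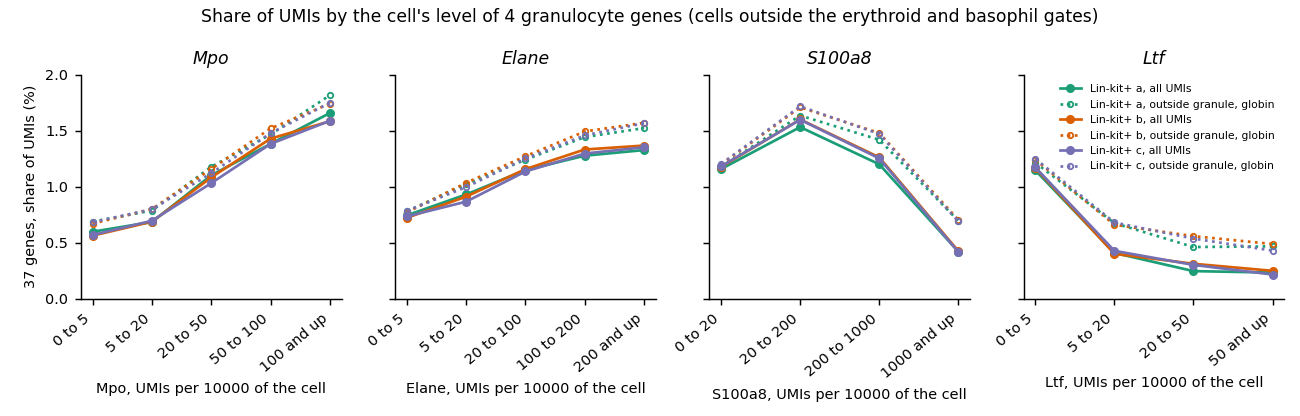
Share of UMIs taken by the 37 genes (percent, vertical axis) in the 10381 Lin-kit+ cells outside the erythroid and basophil gates, binned by their level of Mpo, Elane, S100a8 or Ltf (UMIs per 10000 of the cell, horizontal axis); solid lines use all UMIs, dotted lines UMIs outside granule and globin genes, and each colour is 1 library. The share rose along Mpo and Elane, peaked at 20 to 200 S100a8 UMIs and fell along Ltf.

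Counts were then tested gene by gene, summed per library and class, with edgeR's quasi-likelihood test over all genes and Benjamini-Hochberg adjustment at 0.05. Between Elane-high and erythroid cells, 34 of 37 genes were higher, against 25.8% of the 9607 genes tested, and 1 was lower, against 30.5%. Their median log2 fold change was 1.29, while that of all genes tested was -0.09. From cells below every gate to Mpo-high cells, 29 were higher (15.0% of all genes) and 1 lower (14.5%), with a median of 0.56. From Mpo-high to Elane-high cells, 29 were higher (8.80%) and 0 lower (8.22%), with a median of 0.38. There were 19 in place of these 29 with doubled gate cuts (4.66% of all genes) and 10 without the library term (3.33%), and the 8 that missed the threshold had log2 values from 0.01 to 0.30. From S100a8-high to Ltf-high cells 31 were lower (17.0%) and 0 higher (20.2%), with a median of -1.004. The 8 genes with an ERSE in their window had a median of 1.63 between Elane-high and erythroid cells and the 23 matched genes without it 1.24, and -1.55 and -0.89 between Ltf-high and S100a8-high cells. The order was the other way between Elane-high and Mpo-high cells (0.34 with the element, 0.38 without) and between reporter-positive libraries and cells below every gate (-0.32 and -0.53). None of these differences was tested.

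The S100a8-high class stood apart, since there the direction depended on the scaling. With edgeR's TMM factors, 14 genes were higher in S100a8-high than in Elane-high cells (24.6% of all genes) and 10 lower (31.0%), while with total UMIs as the scale 1 was higher (12.8% of all genes) and 24 lower (56.6%), and with totals outside granule and globin genes 11 were higher (20.9%) and 14 lower (37.2%). The median gene of the whole table moved from -0.08 to -0.42 between the first pair of scalings. Between Ltf-high and S100a8-high cells the median gene moved from 0.01 to -0.62, and all 37 genes were then lower, against 50.7% of all genes. Lower in S100a8-high than in Elane-high cells under all 3 scalings were Calr, Canx, Fkbp11, Sec61a1, Rpn1, Rpn2, Hsp90b1, Hyou1, Pdia4 and Ssr1, and higher under all 3 was Spcs1. Fold changes below are on the TMM scale unless stated.

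**Figure D3:**
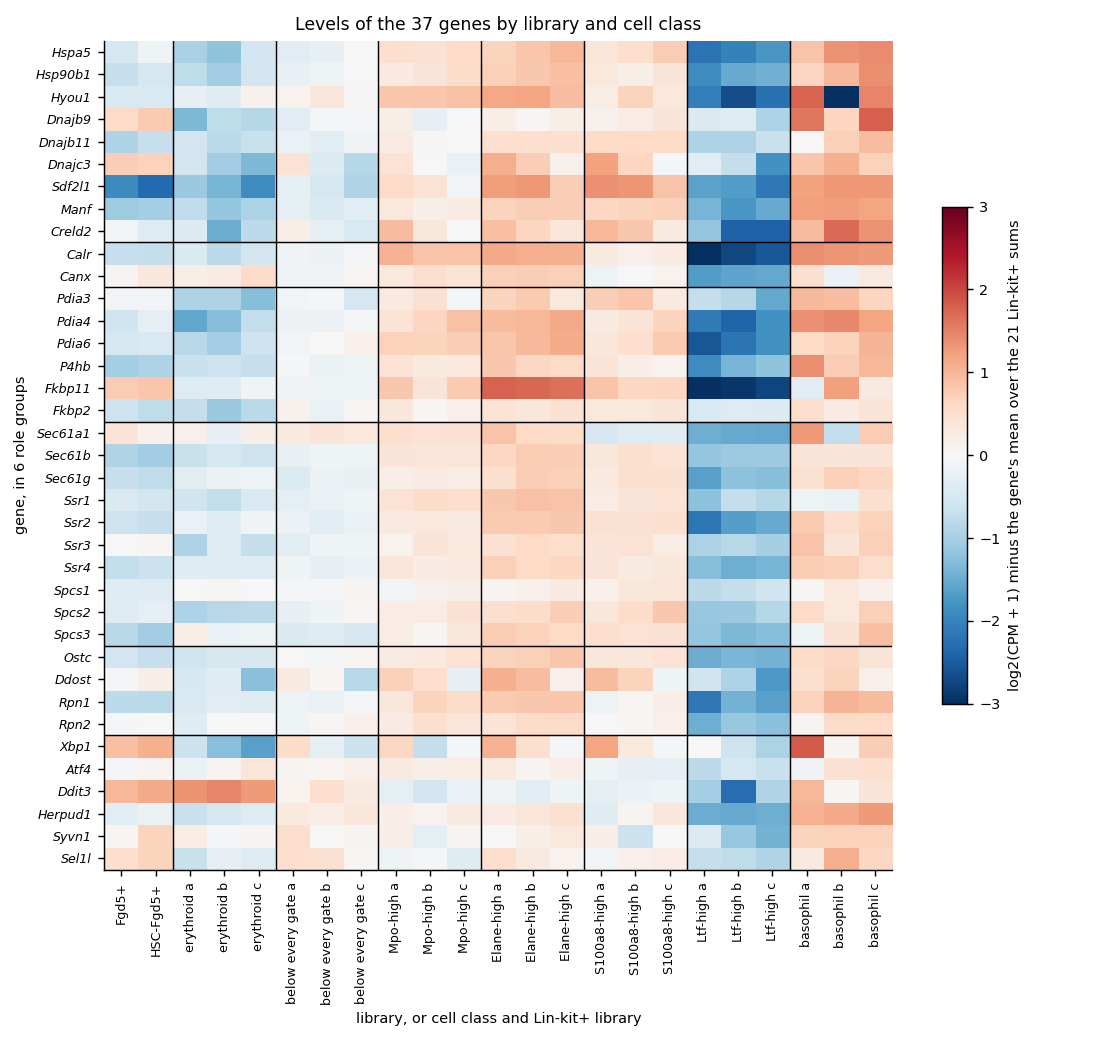
Levels of the 37 genes (rows, in their 6 roles) in the reporter-positive libraries and in each cell class of each Lin-kit+ library (columns), as log2(CPM + 1) minus the mean of the gene over the 21 Lin-kit+ sums, with colours ending at 3 either way. Without the basophil class, 23 of 37 genes were highest in Elane-high cells in all 3 libraries, and 29 of 37 were lowest in Ltf-high cells in all 3. Granule and globin genes took 44.0% of UMIs in Ltf-high cells, which lowers any other CPM there. With total UMIs as the scale, 50.7% of all genes were called lower in Ltf-high than in S100a8-high cells. The order of classes was not counted over all genes.

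Among the lumenal chaperones, Hspa5, the main ER chaperone and a regulator of the stress sensors, counted 237, 201 and 312 CPM in erythroid cells, 364, 389.6 and 470.1 below every gate and 652, 632 and 685 in Mpo-high cells. It reached 738, 819.6 and 921 CPM in Elane-high cells, stood at 597, 665 and 785 in S100a8-high cells and fell to 98.9, 112 and 138 in Ltf-high cells. Elane-high and erythroid cells did not overlap, with a log2 fold change of 1.73 ± 0.06 SE, edgeR adjusted p = 2.71e-39, and neither did Ltf-high and S100a8-high cells, with a log2 fold change of -1.89 ± 0.07 SE, edgeR adjusted p = 4.09e-38. Hsp90b1, the ER member of the HSP90 family, moved in parallel, from 214, 178 and 244 CPM in erythroid to 600.4, 638 and 685 in Elane-high cells and down to 100.4, 128 and 134 in Ltf-high cells. Manf, which is retained in the ER and binds Hspa5, counted 219.9, 168 and 195 CPM in erythroid, 596, 629 and 628 in Elane-high, 577, 598 and 617 in S100a8-high and 143, 110.5 and 129.8 in Ltf-high cells.

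Sdf2l1, a cofactor of Hspa5 and of ER DnaJ proteins, had the widest range among the 37 genes between Elane-high and erythroid cells. It counted 113, 93.4 and 66.1 CPM in erythroid cells, 202, 169 and 131 below every gate and 365, 335 and 231 in Mpo-high cells. In Elane-high cells it counted 589, 604 and 409 CPM, above every erythroid value (log2 fold change of 2.62 ± 0.08 SE, edgeR adjusted p = 7.53e-45). It counted 634, 616 and 449 CPM in S100a8-high cells before it fell to 80.0, 75.7 and 55.3 CPM in Ltf-high cells (log2 fold change of -2.38 ± 0.08 SE, edgeR adjusted p = 1.44e-41). Library c was the lowest of the 3 in every one of these classes. Dnajb11, a DnaJ partner of Hspa5, was one of 3 genes highest in S100a8-high cells in all 3 libraries with the basophil class left out, at 169.5, 169.7 and 169.8 CPM against 157, 160.4 and 156 in Elane-high cells (log2 fold change of 0.44 ± 0.06 SE, edgeR adjusted p = 1.13e-10). With total UMIs as the scale this value was 0.11 and missed the threshold. The others were Sdf2l1, whose 0.43 became 0.09 with total UMIs and missed it too, and Spcs1.

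Creld2, a disulfide isomerase-like stress target, counted 30.6, 14.0 and 23.3 CPM in erythroid, 79.5, 51.8 and 40.5 in Mpo-high, 76.8, 64.9 and 52.8 in Elane-high and 17.5, 6.83 and 6.77 in Ltf-high cells. Hyou1, an HSP110-like nucleotide exchange factor, was sparse and counted 7.65, 6.98 and 10.2 CPM in erythroid, 21.9, 22.3 and 18.4 in Elane-high and 1.46, 0.621 and 1.18 in Ltf-high cells. The last step was its steepest, with a log2 fold change of -2.92 ± 0.44 SE, edgeR adjusted p = 2.99e-08. Dnajc3 (p58IPK) counted 32.5, 22.7 and 18.4 CPM in erythroid and 103, 80.0 and 52.6 in Elane-high cells, and its order by library, a above b above c, was the same in 6 of 7 classes. Dnajb9, a DnaJ that restrains the sensor Ern1, rose from 9.56, 14.8 and 13.9 CPM in erythroid to 29.8, 27.2 and 29.3 in Elane-high cells (log2 fold change of 1.11 ± 0.19 SE, edgeR adjusted p = 3.16e-07). For it neither Mpo-high cells against those below every gate nor Elane-high against Mpo-high cells passed the test, and the 18.9, 19.9 and 13.2 CPM in Ltf-high cells did not pass it either (log2 fold change of -0.39 ± 0.17 SE, edgeR adjusted p = 0.057).

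Calr (calreticulin) counted 604, 470.4 and 552 CPM in erythroid cells, 764, 725 and 780.2 below every gate, 1670, 1465 and 1485 in Mpo-high and 1798, 1725 and 1699 in Elane-high cells. The step to Mpo-high cells (log2 fold change of 1.10 ± 0.05 SE, edgeR adjusted p = 9.07e-32) was the largest of any of the 37 genes in that comparison, and the next step added 0.23 ± 0.05. Calr then fell, to 978, 912 and 961 CPM in S100a8-high cells (log2 fold change of -0.53 ± 0.05 SE, edgeR adjusted p = 4.02e-17) and 82.9, 122 and 139 in Ltf-high cells (log2 fold change of -2.28 ± 0.07 SE, edgeR adjusted p = 1.23e-43). Canx (calnexin), its membrane-bound relative, went from 184, 192 and 240.4 CPM in erythroid to 265, 269 and 265 in Elane-high cells (log2 fold change of 0.33 ± 0.07 SE, edgeR adjusted p = 1.20e-05) and 49.5, 53.4 and 55.0 in Ltf-high cells. Together the lectin pair took 14.3% ± 0.57 of the UMIs of the 37 genes in Elane-high cells, 9.84% ± 0.37 in S100a8-high and 5.26% ± 0.81 in Ltf-high cells (SD, n = 3).

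The isomerases rose in every member. All 6 were higher in Elane-high than in erythroid cells and all 6 were higher again than in Mpo-high cells. Pdia6 counted 193, 169 and 223 CPM in erythroid, 557, 545 and 576 in Mpo-high, 614, 676 and 746 in Elane-high and 56.7, 74.5 and 95.9 in Ltf-high cells. Pdia4 went from 30.6, 37.5 and 54.7 to 180.2, 186 and 205 and then to 20.4, 16.8 and 25.6 CPM in the same order of erythroid, Elane-high and Ltf-high cells (log2 fold change of 2.11 ± 0.10 SE, edgeR adjusted p = 5.64e-33 for the rise). Pdia3, the isomerase that works with the lectins, stayed at 477, 509.7 and 352 CPM in S100a8-high against 458, 499 and 359 in Elane-high cells, which overlapped in CPM. Its call as higher there (0.36 on the log2 scale) was lost with total UMIs (0.02). P4hb (protein disulfide isomerase itself) counted 103, 106 and 101 CPM in erythroid and 288, 255 and 244 in Elane-high cells.

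Fkbp11, a membrane-bound prolyl isomerase of secretory cells, stood out in the Elane-high class. It counted 23.4, 23.1 and 23.1 CPM below every gate, 45.1, 33.9 and 44.4 in Mpo-high and 88.8, 87.0 and 81.8 in Elane-high cells, where no other step from Mpo-high to Elane-high cells among the 37 genes was as large (log2 fold change of 1.08 ± 0.10 SE, edgeR adjusted p = 1.83e-14). It then stood at 46.8, 39.9 and 40.5 CPM in S100a8-high cells (log2 fold change of -0.70 ± 0.08 SE, edgeR adjusted p = 6.81e-13) and at 1.46, 2.48 and 2.94 in Ltf-high cells (log2 fold change of -3.32 ± 0.25 SE, edgeR adjusted p = 4.82e-20). Fkbp2, another prolyl isomerase, counted 209.9, 209 and 219 CPM in S100a8-high and 122, 128 and 126 in Ltf-high cells, a difference that did not pass the test (log2 fold change of -0.13 ± 0.07 SE, edgeR adjusted p = 0.157) on the TMM scale, although the CPM did not overlap.

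All 10 translocon, TRAP and signal peptidase genes were higher in Elane-high than in erythroid cells and lower in Ltf-high than in S100a8-high cells. Sec61b, a small subunit of the channel, counted 595, 657 and 613 CPM in erythroid, 1456, 1585 and 1558 in Elane-high, 1189, 1309 and 1244 in S100a8-high and 423, 439 and 441 in Ltf-high cells. Sec61g, the other small subunit, counted 730.3, 821 and 828 CPM in erythroid, 1286, 1525 and 1506 in Elane-high and 298, 389 and 378 in Ltf-high cells. The pore subunit Sec61a1 had a narrower range, 51.6, 38.4 and 51.8 CPM in erythroid and 83.9, 70.1 and 67.8 in Elane-high cells, and fell already at the S100a8-high stage, to 32.0, 35.2 and 35.9 CPM (log2 fold change of -0.69 ± 0.08 SE, edgeR adjusted p = 2.97e-11). Ssr2, of the TRAP complex, counted 325, 329 and 319.7 CPM in Mpo-high, 458, 452 and 462 in Elane-high and 58.2, 82.6 and 92.1 in Ltf-high cells. Ssr1, of the same complex, counted 191, 207 and 201 CPM in Mpo-high, 248, 259.7 and 258 in Elane-high and 59.6, 86.3 and 78.0 in Ltf-high cells. The signal peptidase gene Spcs1 had the smallest rise of the group, from 275, 286 and 283 CPM in erythroid to 294, 310.5 and 339 in Elane-high cells (log2 fold change of 0.20 ± 0.06 SE, edgeR adjusted p = 0.00228). It counted 309.9, 350.5 and 359.7 CPM in S100a8-high and 160, 168 and 185 in Ltf-high cells. The other 4 genes of this group had Elane-high over erythroid log2 values between 0.81 and 1.503. As a part of the UMIs of the 37 genes, the group took 40.7% ± 1.1 in Elane-high and 50.6% ± 1.3 in Ltf-high cells (SD, n = 3).

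All 4 oligosaccharyltransferase genes were higher in Elane-high than in erythroid cells and lower in Ltf-high than in S100a8-high cells. Ostc counted 155, 168 and 169 CPM in erythroid, 374, 388 and 422 in Elane-high, 297, 299 and 320 in S100a8-high and 82.9, 91.3 and 87.7 in Ltf-high cells. Rpn2 counted 161, 203 and 209 CPM in erythroid, 275, 309.5 and 308 in Elane-high, 208, 213 and 229 in S100a8-high and 74.2, 93.8 and 85.9 in Ltf-high cells. Rpn1 fell to 130.1, 152 and 166 CPM in S100a8-high against 250.3, 256 and 260.2 in Elane-high cells (log2 fold change of -0.41 ± 0.05 SE, edgeR adjusted p = 8.39e-10). Ddost was lowest in library c in all 7 classes, at 290.1, 262 and 152 CPM in Elane-high cells.

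**Figure D4:**
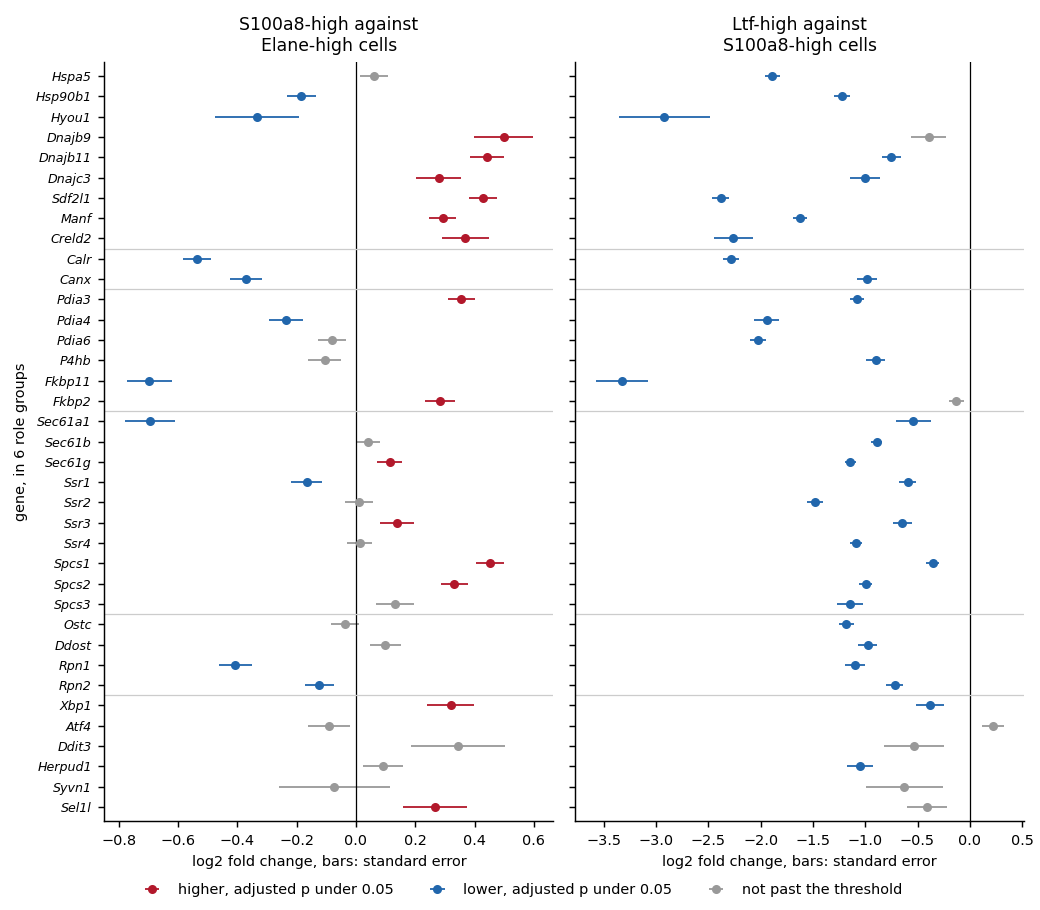
Fitted log2 fold changes of the 37 genes with their standard errors (horizontal axis, TMM scale), S100a8-high against Elane-high cells on the left and Ltf-high against S100a8-high cells on the right; colours give the call at an adjusted p of 0.05. On the left 14 genes were higher and 10 lower, a split that turned to 1 higher and 24 lower with total UMIs as the scale; on the right 31 were lower and 0 higher.

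The stress transcription factors did not follow the chaperones as a group. Atf4, the factor of the amino acid and ER stress response, counted 68.8, 83.8 and 101 CPM in erythroid, 96.6, 83.0 and 90.4 in Elane-high and 71.9, 65.8 and 65.0 in S100a8-high cells, and none of the 7 class comparisons passed the test for it. Ddit3 went the other way. It counted 34.4, 37.5 and 32.7 CPM in erythroid cells, 14.0, 18.6 and 15.8 below every gate and 11.9, 10.1 and 11.8 in Elane-high cells, and the first and last did not overlap (log2 fold change of -1.57 ± 0.17 SE, edgeR adjusted p = 5.56e-13). It was the 1 gene of the 37 that was lower in Elane-high than in erythroid cells.

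Xbp1, the factor spliced by Ern1 and needed by many secretory cells, counted 32.5, 20.9 and 15.9 CPM in erythroid, 75.8, 41.2 and 32.1 below every gate, 107, 71.2 and 50.1 in Elane-high and 50.9, 32.9 and 25.9 in Ltf-high cells. The rise from erythroid to Elane-high cells passed the test (log2 fold change of 1.72 ± 0.16 SE, edgeR adjusted p = 2.55e-16) in a fit that has the library as a term. Across libraries the levels crossed, since Elane-high cells of library c lay below cells under every gate of library a. The counts do not tell spliced from unspliced Xbp1. Of the degradation factors, Herpud1 counted 44.0, 49.7 and 54.3 CPM in erythroid, 86.8, 82.7 and 89.7 below every gate and 83.9, 90.9 and 97.7 in Elane-high cells (log2 fold change of 0.89 ± 0.10 SE, edgeR adjusted p = 8.90e-12 for Elane-high against erythroid cells). From 55.2, 74.8 and 89.7 CPM in S100a8-high cells it fell in Ltf-high cells, with a log2 fold change of -1.05 ± 0.13 SE, edgeR adjusted p = 2.62e-11. Sel1l went from 13.4, 18.3 and 16.3 CPM in erythroid to 31.4, 26.5 and 23.4 in Elane-high cells, and Syvn1, its ubiquitin ligase partner, passed no test among the classes at 2.35 to 13.7 CPM.

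The 3 Lin-kit+ libraries agreed closely on most of the 37 genes and not on a few. Of the 34 genes with a mean of at least 20 CPM, 4 differed at least 1.5-fold between the highest and the lowest library, against 7.44% of 4151 genes at that level in the whole table. They were Xbp1 (93.8, 53.9 and 42.8 CPM), Dnajc3 (86.3, 60.5 and 40.5), Ddost (231, 198 and 113) and Creld2 (66.3, 52.7 and 42.1), and all 4 ran from a down to c. Of the 309 such genes in the table, 264 ran the same way. The order recurred within classes, in 6 of 7 for Dnajc3 and in 5 of 7 each for Xbp1, Ddost and Creld2. Library a had the fewest cells of the 3 and the most UMIs per cell, and the part of depth or handling in this order was not tested.

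Basophil cells also carried high levels of the 37 genes. As gated, they gave 1.43%, 1.47% and 1.52% of UMIs. Against erythroid cells, 29 of 37 genes were higher (12.1% of all genes) and 0 lower (16.5%), with a median log2 fold change of 1.27. Against Elane-high cells, 8 were higher (9.41%) and 5 lower (14.0%). That split turned to 2 higher (7.01%) and 9 lower (11.2%) with halved gate cuts, and to 3 higher and 4 lower both without library c (6.47% and 9.43%) and without the library term (8.42% and 12.0%). Without a filter on low counts it was 5 higher (5.66%) and 6 lower (9.25%), and with doubled cuts 20 higher (13.8%) and 3 lower (14.0%). In the class as gated, S100a8 stood at 3934, 245 and 5785 CPM, its part in these counts was not tested, and 223 further cells with basophil genes were left out for their Mpo. A stricter set had a cut of 100 per 10000, S100a8 under its cut and no Mpo limit, chosen after the data were seen. It held 271 cells, of which 19, 36 and 53 in libraries a, b and c were in the class as gated. The rest had been left out before. In this set S100a8 stood at 113, 238 and 286 CPM, and 27 genes were higher than in Elane-high cells (13.6% of all genes) and 2 lower (14.6%). Mpo stood at 2382, 2678 and 2960 CPM in these cells, against 912, 905 and 1062 in the class as gated and 6144, 6469 and 6718 in Elane-high cells, and its part in the difference between both gates was not tested. The 37 genes then took 1.80%, 1.79% and 1.85% of UMIs, above every Elane-high value.

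Dnajb9 had the largest fold change of the 37 genes between basophil and Elane-high cells. It counted 79.9, 40.8 and 92.2 CPM in basophil cells as gated and 80.0, 68.8 and 82.4 under the stricter cut, against 29.8, 27.2 and 29.3 in Elane-high cells, with no overlap (log2 fold change of 1.37 ± 0.26 SE, edgeR adjusted p = 1.10e-05; 1.54 ± 0.18 under the stricter cut). Herpud1 counted 146, 156 and 174 CPM (log2 fold change of 0.78 ± 0.17 SE, edgeR adjusted p = 0.000115), Creld2 79.9, 136 and 106 CPM (log2 fold change of 0.75 ± 0.22 SE, edgeR adjusted p = 0.00564) and Manf 879, 892 and 850.4 CPM (log2 fold change of 0.45 ± 0.08 SE, edgeR adjusted p = 3.93e-06). Fkbp11 lay on the other side, at 20.0, 61.2 and 30.7 CPM (log2 fold change of -1.29 ± 0.27 SE, edgeR adjusted p = 8.95e-05; -0.89 ± 0.19 under the stricter cut). Canx, Sec61b, Ssr1 and Ostc were the other genes lower in basophil cells as gated, of which only Ssr1 was still lower under the stricter cut, at -0.40 ± 0.10.

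Reporter-positive libraries were set against Lin-kit+ libraries to ask how the stem cell end of the compartment differs. In whole-library sums, where fewer cells of a type and less RNA per cell cannot be told apart, 31 of 37 genes were lower (30.4% of 11991 genes tested) and 1 higher (32.7%), with a median log2 fold change of -1.28. Total UMIs as the scale moved the median gene of the table from 0.07 to 0.60 and the median of the 37 genes to -0.74. On that scale 25 of the 37 were lower (16.6% of all genes) and 3 higher (54.9%). Sdf2l1 counted 64.3 and 48.5 CPM in Fgd5+ and HSC-Fgd5+ cells against 446, 426 and 303 in Lin-kit+ cells (log2 fold change of -3.31 ± 0.23 SE, edgeR adjusted p = 2.44e-05). Manf counted 177 and 183 against 487, 471 and 482 CPM, Sec61b 502 and 456 against 1135, 1195 and 1164, P4hb 81.1 and 86.3 against 219, 190.5 and 186 and Calr 503 and 497 against 1255, 1141 and 1158. None of these 5 overlapped between the groups. For 4 of the genes called lower, Canx, Sec61a1, Ddost and Atf4, the CPM overlapped, and their calls rest on the TMM scale.

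Reporter-positive libraries were also set against the Lin-kit+ cells below every gate, which lack high granule and erythroid genes by the gates. There 24 of 37 genes were lower (23.7% of 10828 genes) and 4 higher (25.1%), with a median of -0.56 (-0.32 with total UMIs, when the median gene moved from 0.07 to 0.30). Sdf2l1 was again the furthest down (log2 fold change of -1.78 ± 0.22 SE, edgeR adjusted p = 0.000333), followed by P4hb (log2 fold change of -1.08 ± 0.10 SE, edgeR adjusted p = 9.17e-05), Sec61b, Manf and Rpn1. Hspa5 stood at 318 and 420 CPM against 364, 389.6 and 470.1, which overlapped (log2 fold change of -0.39 ± 0.14 SE, edgeR adjusted p = 0.0482), and the calls of Hspa5, Rpn2 and Atf4 were lost under several alternatives. The sets compared differed also in other markers, granule genes included. The summed primary granule genes stood at 943 and 706 CPM in the reporter-positive libraries and at 1867, 1607 and 1781 below every gate, with Mpo at 56.6 and 7.85 against 409, 372 and 415 CPM. Of the sum in the reporter-positive libraries, Prtn3 made up 655 and 593.5 CPM. The summed stem cell markers stood at 899 and 949 CPM against 111, 134 and 121, and the dendritic and monocyte markers at 405 and 446 against 2974, 2839 and 2901. Plasma cell markers stood at 5.76 and 6.92 CPM against 1052, 1099 and 836, and below every gate that sum was mostly Jchain, also a dendritic cell gene. Lymphoid and B cell markers stood at 2.16 and 11.5 against 337, 436 and 394, and megakaryocyte markers at 261 and 153 against 656, 495 and 564. Single markers of a list need not follow its sum. The part of these markers in the counts was not tested.

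The 4 genes that were higher in reporter-positive libraries than below every gate were Xbp1, Ddit3, Dnajb9 and Fkbp11. Xbp1 counted 97.2 and 108 CPM against 75.8, 41.2 and 32.1 below every gate, all reporter-positive values above all others (log2 fold change of 0.86 ± 0.31 SE, edgeR adjusted p = 0.0466). This call was lost in DESeq2 (adjusted p = 0.0623), with doubled gate cuts (edgeR adjusted p = 0.0822), without shared barcodes (0.0533) and without Lin-kit+ b or c or either reporter-positive library (0.0929 to 0.157), with log2 values from 0.60 to 0.92. Ddit3 counted 26.9 and 29.5 CPM against 14.0, 18.6 and 15.8 (log2 fold change of 0.54 ± 0.16 SE, edgeR adjusted p = 0.0258), and it was the 1 gene also higher against whole Lin-kit+ libraries (13.5, 13.2 and 13.9 CPM; log2 fold change of 0.51 ± 0.11 SE, edgeR adjusted p = 0.00583). Both calls were lost in DESeq2, at adjusted p of 0.204 and 0.0683, and the first also without Lin-kit+ a or c or either reporter-positive library (edgeR adjusted p from 0.0537 to 0.1096). Dnajb9 counted 38.9 and 45.7 CPM against 20.4, 24.8 and 25.2 (log2 fold change of 0.58 ± 0.14 SE, edgeR adjusted p = 0.0118), a call lost in DESeq2 (adjusted p = 0.102) and without HSC-Fgd5+ (edgeR adjusted p = 0.0781). Fkbp11 counted 43.7 and 46.1 against 23.4, 23.1 and 23.1 CPM (log2 fold change of 0.71 ± 0.12 SE, edgeR adjusted p = 0.0019). Fkbp11 was the 1 of the 4 that also passed in DESeq2.

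**Figure D5:**
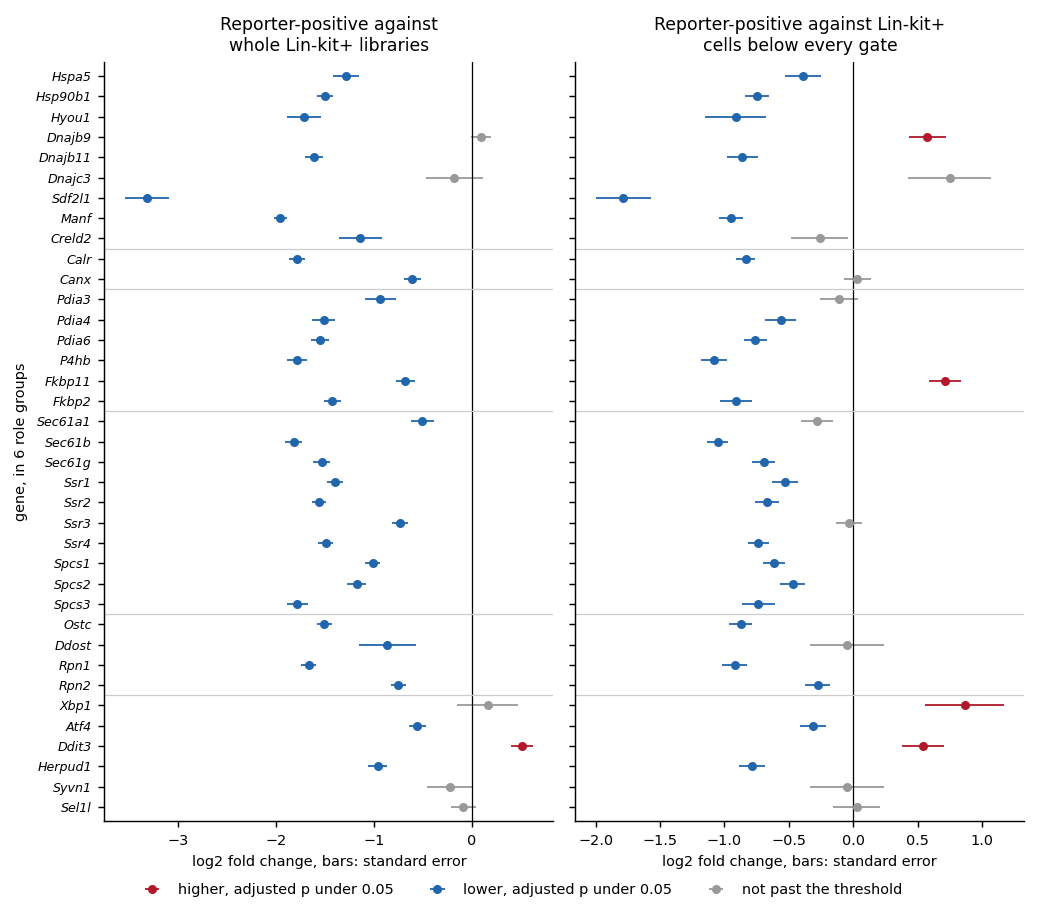
Fitted log2 fold changes of the 37 genes with their standard errors (horizontal axis, TMM scale) in reporter-positive libraries, against whole Lin-kit+ libraries on the left and against Lin-kit+ cells below every gate on the right; colours give the call at an adjusted p of 0.05. On the left 31 genes were lower and 1 higher, on the right 24 were lower and 4 higher; with total UMIs as the scale Sec61a1 on the left stood at 0.03.

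The rest of the pathway was described from a list of 65 further ER and secretory genes present in the table. Of those tested, 44 of 60 were higher (25.8% of all genes) and 2 lower (30.5%) in Elane-high than in erythroid cells. In Ltf-high against S100a8-high cells 31 of 60 were lower (17.0%) and 2 higher (20.2%). In reporter-positive against Lin-kit+ libraries 43 of 63 were lower (30.4%) and 3 higher (32.7%). In the first and the last of these comparisons the genes that went against the larger direction were stress sensors and outputs. Trib3, a target of Ddit3 and Atf4, had 104 UMIs in Fgd5+ and 69 in HSC-Fgd5+ cells, or 24.9 and 31.9 CPM, against 3, 3 and 15 UMIs in the much larger Lin-kit+ libraries (at most 0.416 CPM), with edgeR adjusted p = 6.90e-06. Ppp1r15a (GADD34), which reverses the translation block of the stress response, counted 119 and 129.7 against 20.0, 18.8 and 18.9 CPM (log2 fold change of 2.15 ± 0.08 SE, edgeR adjusted p = 3.62e-06), and the sensor Ern1 14.9 and 20.8 against 6.60, 6.21 and 4.85 (log2 fold change of 1.05 ± 0.22 SE, edgeR adjusted p = 0.00483). All 3 were also higher against cells below every gate, Ppp1r15a by 1.40 and Ern1 by 1.34 on the log2 scale. Between erythroid and Elane-high cells Ppp1r15a and Ern1 moved in opposite directions. Ppp1r15a fell from 47.8, 48.9 and 45.3 to 14.6, 13.1 and 12.2 CPM (log2 fold change of -1.84 ± 0.14 SE, edgeR adjusted p = 1.28e-19), while Ern1, with 0, 1 and 2 UMIs in erythroid cells, reached 10.0, 9.34 and 7.05 CPM. Both were lower in S100a8-high cells, at 4.43, 4.77 and 6.21 CPM for Ppp1r15a and 4.43, 5.27 and 1.81 for Ern1.

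Among the folding enzymes outside the 37 genes, the oxidase Ero1l and the isomerase Txndc5 moved in opposite directions from Elane-high to S100a8-high cells. Ero1l counted 45.7, 29.1 and 23.6 CPM in Elane-high and 77.4, 55.0 and 45.3 in S100a8-high cells (log2 fold change of 1.22 ± 0.08 SE, edgeR adjusted p = 1.48e-22). In Ltf-high cells it counted 71.3, 41.0 and 40.3 CPM, which was higher than in S100a8-high cells on the TMM scale and lower (-0.23) with total UMIs. Txndc5 fell from 55.2, 36.8 and 37.6 to 3.94, 2.01 and 2.59 CPM (log2 fold change of -3.57 ± 0.18 SE, edgeR adjusted p = 1.81e-31). Erp29 fell as well, from 539, 485 and 499 to 200.5, 191 and 203 CPM (log2 fold change of -1.01 ± 0.05 SE, edgeR adjusted p = 1.49e-32), while the retrieval receptor gene Kdelr2 rose from 146, 149.6 and 132 to 243, 218 and 189 (log2 fold change of 0.92 ± 0.05 SE, edgeR adjusted p = 4.46e-27). Asns, an Atf4 target for asparagine synthesis, counted 93.7, 61.1 and 107 CPM in erythroid cells and rose from 11.4, 10.7 and 14.4 in Elane-high to 21.2, 24.4 and 30.7 in S100a8-high cells (log2 fold change of 1.42 ± 0.13 SE, edgeR adjusted p = 1.52e-16). The directions of Ero1l, Txndc5, Erp29, Kdelr2 and Asns between S100a8-high and Elane-high cells held with total UMIs as well. In basophil cells the mannosidase-like degradation factor Edem3 counted 66.6, 95.3 and 71.7 CPM against 6.22, 5.61 and 3.32 in Elane-high cells (log2 fold change of 4.02 ± 0.35 SE, edgeR adjusted p = 8.18e-17; 113, 82.6 and 74.3 CPM under the stricter cut).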

How the data were processed

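Transcripts of single cells were captured with the 10x Chromium Single Cell 3' v2 kit. The authors deposited 1 table of raw UMI counts for 15287 genes in 12893 cells, pooled over 5 libraries. Per the submitters' processing notes, Cell Ranger 1.3 and 2.1, Seurat 2.3.4 and mm10 were used. No per-sample column was left unused (0).

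Counts were summed per library, and per library and cell class, and tested with edgeR 4.0.16 (R 4.3.3; quasi-likelihood F-test, TMM factors, filterByExpr, library as a term in class comparisons, Benjamini-Hochberg adjustment over all genes tested). The alternatives were DESeq2 1.42.0, other scalings, gates and filters, and leaving out each library. Doublets were called with Scrublet in scanpy 1.11.5 (165 cells, 1.28%), kept, and left out as an alternative. The tests were checked on simulated counts. Promoter windows are those of RefSeq on GRCm38.p6.

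The 37 genes, the other lists and the gates were chosen with earlier results of these data known. Per-library values are given for the 2 genes of each role with the highest mean CPM, for up to 5 called genes each way in a comparison by size of the fold change, and for Xbp1, Atf4 and Ddit3. Of the other pathway genes, up to 3 each way follow the same rule. Values given for other members were added for completeness. Depth limits the sparse genes: in basophil cells (150227 UMIs in library a) 1 UMI is worth several CPM.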

Additional observations from a re-analysis of the deposited data

Results flagged for a closer look

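A total of 233 Lin-kit+ cells entered no comparison between classes as gated, 223 of them because they passed the basophil gate with Mpo at or above its cut. They were part of the whole Lin-kit+ sums. All but 4, 17 and 49 of them in libraries a, b and c also entered the set under the stricter basophil cut. They were flagged because the 37 genes made up more of their UMIs than in any class compared as gated. The share was 1.71% in library a (25 cells), 1.67% in library b (66 cells) and 1.63% in library c (142 cells). In the same cells Mcpt8 stood at 15770, 20010 and 16790 CPM and Mpo at 4031, 4161 and 4470 CPM. These values were not tested against a class.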

How the results depend on the processing

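Of 119 recomputed counts of called genes among the 37, 107 kept their larger direction and stayed within 1.5 times the reported count. The exceptions lay in 3 comparisons. For S100a8-high against Elane-high cells (14 higher, 10 lower), the split turned with total UMIs (25 calls: 1 higher, 24 lower) and with totals outside granule and globin genes (25: 11 and 14). It turned also with doubled gate cuts (23: 10 higher and 13 lower, against 27.9% and 28.2% of all genes). Without a library term 11 calls were left, where 17.3% of all genes were higher and 21% lower. For basophil against Elane-high cells (8 higher, 5 lower), the split turned without a filter on low counts (11: 5 and 6), with halved cuts (11: 2 and 9), without a library term (7: 3 and 4) and without Lin-kit+ c (7: 3 and 4), and it grew to 23 with doubled cuts and to 29 with the stricter basophil cut. For Elane-high against Mpo-high cells, 29 calls became 19 with doubled cuts and 10 without a library term. The causes were not tested.

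Leaving out 1 library at a time gave 26 to 29 calls for Elane-high against Mpo-high cells, 34 to 35 for Elane-high against erythroid, 30 to 33 for Ltf-high against S100a8-high, 26 to 31 for Mpo-high against below every gate, 19 to 23 for S100a8-high against Elane-high, 7 to 14 for basophil against Elane-high and 26 to 30 for basophil against erythroid. For the reporter-positive libraries it gave 31 to 33 against Lin-kit+ libraries and 21 to 28 against cells below every gate.

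Of 3934 recomputed values of 299 named results, 3650 stayed on the same side of the threshold, 270 lost it and 14 changed sign. With total UMIs, S100a8-high against Elane-high log2 values became -0.059 for Dnajc3, -0.053 for Fkbp2, -0.045 for Manf, -0.22 for Sec61g, -0.070 for Sel1l, -0.0052 for Spcs2, -0.20 for Ssr3 and -0.018 for Xbp1. With the same scale Sec61a1 became 0.032 in reporter-positive against Lin-kit+ libraries and Ero1l -0.23 in Ltf-high against S100a8-high cells. With halved cuts Calr became -0.20 and Hsp90b1 -0.17 in basophil against Elane-high cells. Ostc became 0.033 there under the stricter cut, and Rpn2 -0.013 in Elane-high against Mpo-high cells with doubled cuts. No paired analysis was possible between reporter-positive and Lin-kit+ libraries, because the columns carry no replicate number and the numbers given to the samples only name them.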
